A study of Mus musculus with 27 samples.

Results

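A group of 10 genes, of 38352 measured, is described here: stress, metabolism and growth arrest genes that p53 is known to activate. They are the sestrin genes Sesn1 and Sesn2, Ddit4, Zmat3, the polo-like kinase genes Plk2 and Plk3, Btg2, Phlda3, Gdf15 and Gls2. Each was taken by its gene symbol, which in each case matched a single gene.

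p53 (gene Trp53) is a transcription factor held at low protein level by the ubiquitin ligase Mdm2. DNA damage and oxidants free it from Mdm2, and it then binds response elements made of a pair of decamers near its target genes. Besides the well known arrest and death genes, its targets include brakes on growth signalling through the kinase complex mTORC1 and the kinase Akt, regulators of mRNA decay and splicing, secreted stress factors and metabolic enzymes. Mouse embryonic stem (ES) cells hold much p53, lack a firm G1 checkpoint and are known to answer p53 activation with loss of pluripotency gene expression as well as with arrest or death.

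Peroxide-treated cells were collected at 0.5, 2, 4, 6, 8, 10 and 24 h, and untreated cells at 0 h and 24 h, 9 groups of 3 libraries that stem from 3 separate time courses. All are wild-type E14Tg2a, a mouse ES cell line, kept on gelatin in serum medium with LIF and the 2i inhibitors, with no transgene or knockout named in the labels. Treated cells received hydrogen peroxide (H2O2) at 500 µM for 30 min by the treatment protocol, whereas the design text has mM, and then spent medium taken from untreated cultures, while the 0.5 h cells were collected as the exposure ended. Treated cells of 0.5 h to 10 h are set against untreated 0 h cells and treated 24 h cells against untreated 24 h cells. No group had the medium change alone, so from 2 h on the effect of peroxide and that of the medium change cannot be told apart. Up to 10 h the effect of hours in culture cannot be told apart either, since these times have no untreated group of their own.

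Levels are FPKM, fragments scaled to transcript length and library size, so levels of different genes can be set beside each other per length, but the number of reads behind them is unknown. Relative depth, read from the steps between the lowest values, was 0.981 to 1.10 times that of untreated 0 h replicate 1. All 18 pluripotency markers were above 0 in every library, with a summed level of 2774 to 4915 FPKM. Changes are differences of mean log2(FPKM + 1), tested with limma over all 13614 genes that reached 1 FPKM in at least 3 libraries, and a gene is called higher or lower at an adjusted p below 0.05. All 10 genes passed that filter. In 4 of the 27 libraries GC-rich transcripts were high and GC-poor ones low beside the same group: untreated 0 h replicate 3 and replicate 1 at 2 h, replicate 3 at 8 h and replicate 3 at 10 h of the treated cells. Relative to replicates 1 and 2 of untreated 0 h cells, their slope was 0.357, 0.321, 0.192 and 0.203 log2 units per 10 percentage points of GC. The 3 treated 4 h libraries, which agree among themselves, had 0.130 to 0.205. In the 24 h comparison the slopes were -0.027 to 0.002 in treated cells, against 0.178, 0.024 and 0.110 in untreated 24 h replicates 1, 2 and 3. Transcripts of hepatocytes, which ES cultures should lack, were uneven as well. Alb was at 18.99 to 28.3 FPKM in treated 0.5 h cells, 17.5 in replicate 3 at 6 h, 26.02 and 19.6 in replicates 1 and 2 at 8 h and 15.9 to 24.9 in untreated 24 h cells, against 2.32 in untreated 0 h replicate 3 and at most 0.122 elsewhere. Fewer cells of a kind and less RNA per cell cannot be told apart in any of these bulk measurements.

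Of the 10 genes 7 were higher than in untreated cells by 4 h, and 4 of these, Ddit4, Plk2, Plk3 and Btg2, were called at every later time. At 0.5 h none was called (0.0808% of all genes were called), and at an unadjusted p below 0.05 there were 1352 of 13614 genes. At 2 h only Plk3 was called, higher, of the 10 (1.07% of all genes called in either direction, 0.499% higher). At 4 h 7 of 10 were higher and none lower, against 14.2% of all genes called higher and 12.1% lower. At 6 h 7 were higher and 1, Gls2, lower, against 22.3% and 20.0% of all genes. At 8 h 5 were higher (29.2% of all genes) and none lower (11.6%), and at 10 h 4 were higher (22.2%) and 1 lower (9.43%). At 24 h, against untreated 24 h cells, 5 were higher (8.63%) and none lower (4.28%). The median change of the 10 was 0.89 at 4 h and 0.81 at 6 h, beside 0.01 and 0.00 over all genes tested, and 0.27, 0.25 and 0.36 at 8 h, 10 h and 24 h, beside 0.11, 0.11 and 0.07. Between the untreated groups 1 of 10 was called, Ddit4 (0.705% of all genes, 0.426% higher).

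The groups can also be compared by whether their 3 libraries overlap. Treated libraries lay wholly above untreated ones for 1 gene at 0.5 h (Ddit4), 3 at 2 h (Ddit4, Plk3 and Btg2) and 8 at 4 h, against 6.82%, 4.27% and 18.2% of all genes. At 6 h this held for 7 genes and the reverse for 1, Gls2, against 25.2% and 21.3% of all genes. At 8 h it held for 4 (28.6%), at 10 h for 4 (21.5%) and at 24 h for 7 (34.1%). Untreated 24 h libraries lay wholly above untreated 0 h ones for Sesn2 and Ddit4 (5.82% of all genes) and wholly below for Btg2 (3.32%).

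**Figure D1:**
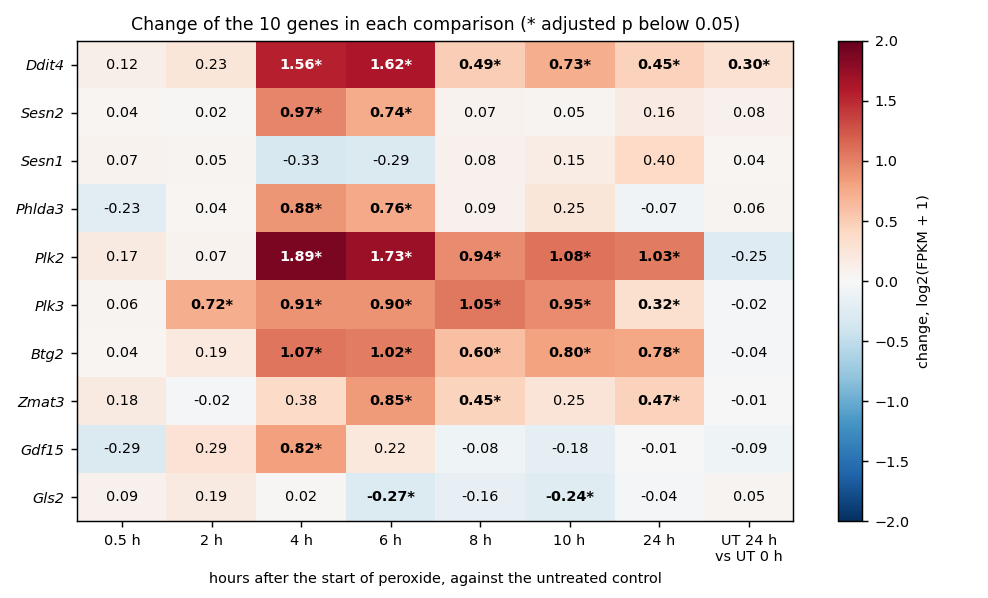
Change of the 10 genes (rows) in 7 comparisons of treated with untreated cells and in untreated 24 h against untreated 0 h cells (columns), as log2(FPKM + 1) differences from limma, red for higher; an asterisk marks an adjusted p below 0.05. Ddit4 and Plk2 have the largest values, 1.56 to 1.89 at 4 h and 6 h, and Plk3 is the only gene called at 2 h.

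Ddit4 (REDD1) restrains mTORC1 through the Tsc1-Tsc2 complex and is known to be induced by hypoxia, glucocorticoids and amino acid stress as well as by p53. The gene (ENSMUSG00000020108) lies at chr10:59949669-59951834 on the minus strand of GRCm38. At 4 h it had 55.3, 51.1 and 56.2 FPKM in treated cells, against 17.4, 18.7 and 17.2 FPKM in untreated 0 h cells, a change of 1.56 (SE 0.07, adjusted p = 2.8e-13). At 6 h treated cells had 55.4, 59.3 and 55.1 FPKM, a change of 1.62 (SE 0.07, adjusted p = 5.66e-14). All libraries of both times lay far above every untreated library, and the 2 times did not differ past the threshold (0.06 with SE 0.07 and adjusted p = 0.567). At 8 h Ddit4 had 23.9, 26.4 and 25.97 FPKM, a step of -1.13 (SE 0.07, adjusted p = 3.11e-10) from 6 h, and it stood at 27.3, 31.4 and 31.8 FPKM at 10 h. Both later times were still above untreated 0 h cells, by 0.49 (SE 0.07, adjusted p = 4.25e-06) and 0.73 (SE 0.07, adjusted p = 4.03e-08); under median-of-ratios scaling the 8 h change was 0.33. At 24 h the treated libraries had 30.7, 29.7 and 31.6 FPKM, against 22.9, 22.7 and 20.7 FPKM in untreated 24 h cells (0.45 with SE 0.07 and adjusted p = 0.00011), with no overlap. Before the rise, treated cells had 19.7, 19.2 and 19.3 FPKM at 0.5 h and 20.3, 22.4 and 20.6 FPKM at 2 h. These values lay just above all 3 untreated 0 h libraries at both times without passing the test (adjusted p = 0.476 and 0.113, limma). Ddit4 was also the single gene of the 10 called between the untreated groups, by 0.30 (SE 0.07, adjusted p = 0.0339), a call that ended without untreated 0 h replicate 1 (0.29, adjusted p = 0.0959) or replicate 3 (0.28, 0.0506), or without untreated 24 h replicate 1 (0.27, 0.144) or replicate 2 (0.28, 0.161).

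Sesn2, a leucine-sensing sestrin that restrains mTORC1 through the GATOR complexes, is known as a target of p53, of ATF4 and of the antioxidant factor NRF2. The gene (ENSMUSG00000028893) lies at chr4:132492032-132510501 on the minus strand and was the most abundant of the 10 in every group. Its RefSeq promoter window (250 bases before to 50 after the start) at chr4:132510407-132510706, GRCm38.p6, minus strand, is shown because it was the one window of the 10 with the core letters TGACNNNGC of the antioxidant response element, in capitals at position -36; 12.38% of 32817 mouse promoter windows hold this core on either strand.
Sesn2: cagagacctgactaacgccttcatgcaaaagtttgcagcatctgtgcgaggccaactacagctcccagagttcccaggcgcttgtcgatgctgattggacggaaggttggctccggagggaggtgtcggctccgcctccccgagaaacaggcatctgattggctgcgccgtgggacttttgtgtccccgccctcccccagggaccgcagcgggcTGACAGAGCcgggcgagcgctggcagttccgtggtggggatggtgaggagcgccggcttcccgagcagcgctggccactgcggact
At 4 h treated cells had 104, 109 and 109 FPKM, against 54.8, 54.9 and 53.3 FPKM in untreated 0 h cells, a change of 0.97 (SE 0.05, adjusted p = 2.22e-11). At 6 h they had 91.6, 94.6 and 88.5 FPKM (0.74 with SE 0.05 and adjusted p = 4.68e-10), which was lower than at 4 h by a step of -0.23 (SE 0.05, adjusted p = 0.00484), a step in which 20.1% of all genes were called. At the other times up to 10 h Sesn2 was not called. Values were 58.3, 56.2 and 52.9 FPKM at 0.5 h, 57.9, 54.3 and 53.5 at 2 h, 54.2, 57.5 and 59.7 at 8 h and 59.1, 53.6 and 56.2 at 10 h, all within a narrow band around the untreated libraries. The step from 6 h to 8 h was -0.67 (SE 0.05, adjusted p = 1.42e-08). The 8 h change, 0.07 (SE 0.05, adjusted p = 0.322), turned to -0.14 (adjusted p = 0.00578) under the GC and length correction. At 24 h the treated libraries, 64.5, 62.8 and 66.2 FPKM, lay wholly above untreated 24 h cells, 59.1, 56.6 and 57.1 FPKM, yet the change missed the threshold at 0.16 with SE 0.05 and adjusted p = 0.0564. It passed without untreated 0 h replicate 3 (adjusted p = 0.0287) or without replicate 1 at 2 h (0.0419), fits in which the change itself is the same 0.16.

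Sesn1, the paralog with the same known action on mTORC1, was called at no time in the fit to deposited values of all libraries. The gene (ENSMUSG00000038332) lies at chr10:41809935-41908424 on the plus strand, and RefSeq gives it more than 1 start. The window of the downstream start is chr10:41887189-41887488 on GRCm38.p6, plus strand. It is shown because it was the only one of the 10 windows with a p53 decamer matched at every letter. Decamers with a mismatch were not searched for. The decamer is in capitals at -173 from the start. The second capitals, TGACG at -61, are the core of a cAMP response element. A p53 decamer matched in this way occurs in 8.355% of all promoter windows and TGACG in 20.79%, both strands counted.
Sesn1: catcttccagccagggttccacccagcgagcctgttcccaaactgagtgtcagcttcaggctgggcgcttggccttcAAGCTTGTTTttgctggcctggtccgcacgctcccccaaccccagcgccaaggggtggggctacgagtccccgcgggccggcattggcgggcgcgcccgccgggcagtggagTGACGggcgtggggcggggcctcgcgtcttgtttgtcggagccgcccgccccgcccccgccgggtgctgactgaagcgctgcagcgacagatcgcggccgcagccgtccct
Treated cells had 3.39, 3.34 and 3.38 FPKM at 4 h and 3.82, 3.17 and 3.52 FPKM at 6 h, against 5.51, 5.27 and 3.05 FPKM in untreated 0 h cells. The low untreated value is that of replicate 3, one of the libraries that stand apart. With it, the changes were -0.33 (SE 0.16, adjusted p = 0.162) and -0.29 (SE 0.16, adjusted p = 0.17); without it, Sesn1 was lower by -0.55 at 4 h (adjusted p = 0.00774) and by -0.51 at 6 h (0.00924). The GC and length correction gave -0.40 (0.00545) and -0.40 (0.00324), and median-of-ratios scaling -0.37 at 4 h (0.0499). Sesn1 had 4.46, 4.601 and 5.21 FPKM at 0.5 h, 3.27, 5.66 and 5.44 at 2 h, 5.15, 4.77 and 4.51 at 8 h and 5.46, 6.01 and 4.02 at 10 h, where the lowest library at 2 h and at 10 h was again one that stands apart. At 24 h the treated libraries, 6.17, 6.93 and 6.12 FPKM, were all above the untreated 24 h ones, 4.09, 5.19 and 4.65 FPKM, with a change of 0.40 (SE 0.16, adjusted p = 0.109) that passed only without untreated 0 h replicate 3 (0.40, adjusted p = 0.035) among fits that leave out 1 library.

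Phlda3, a small pleckstrin homology domain protein that competes with Akt for membrane lipids, carries the highest GC content of the 10 (62.58% of its longest transcript) and the largest SE. The gene (ENSMUSG00000041801) lies at chr1:135766119-135769136 on the plus strand. At 4 h treated cells had 79.9, 69.1 and 80.3 FPKM and at 6 h 71.6, 68.8 and 69.5 FPKM, against 31.4, 34.9 and 62.4 FPKM in untreated 0 h cells. Every library of both times lay above all untreated 0 h libraries, although replicate 3 of the untreated ones came close. The changes were 0.88 (SE 0.22, adjusted p = 0.00364) and 0.76 (SE 0.22, adjusted p = 0.00698), and 1.18 and 1.06 without the 4 libraries that stand apart. Where only the 6 libraries compared entered the fit, neither time was called (adjusted p = 0.1 and 0.0846). At other times treated cells had 33.3, 35.1 and 36.0 FPKM at 0.5 h, 62.5, 34.8 and 34.1 at 2 h, 39.8, 39.5 and 52.6 at 8 h and 43.9, 43.4 and 60.8 at 10 h. The highest of each trio at 2 h, 8 h and 10 h was the library that stands apart, and none of these times was called. Without untreated 0 h replicate 3 the 10 h change was 0.55 (adjusted p = 0.0425), and without the 4 libraries it was 0.39 (0.00359), with 0.25 (0.0369) at 8 h. At 24 h treated cells, 41.2, 38.9 and 42.02 FPKM, overlapped untreated 24 h cells, 48.6, 36.0 and 44.1 FPKM (-0.07 with SE 0.22 and adjusted p = 0.841).

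Plk2, a polo-like kinase with roles in centriole duplication and stress signalling, had the largest change of the 10 at 4 h. The gene (ENSMUSG00000021701) lies at chr13:110395046-110400844 on the plus strand. At 4 h treated cells had 49.0, 54.3 and 53.2 FPKM and at 6 h 47.3, 47.3 and 45.7 FPKM, against 16.1, 15.5 and 9.51 FPKM in untreated 0 h cells. No library overlapped, and the changes were 1.89 (SE 0.14, adjusted p = 1.84e-09) and 1.73 (SE 0.14, adjusted p = 2.76e-09). At 8 h and 10 h treated cells still had 27.8, 27.04 and 24.97 and 34.2, 30.5 and 24.5 FPKM, changes of 0.94 (SE 0.14, adjusted p = 2.22e-05) and 1.08 (SE 0.14, adjusted p = 7.03e-06). With only the libraries compared the adjusted p at 10 h was 0.0583. At 24 h they had 23.4, 24.1 and 23.6 FPKM, against 10.7, 11.97 and 10.6 FPKM in untreated 24 h cells (1.03 with SE 0.14 and adjusted p = 7.33e-05). The 3 treated 24 h libraries were thus close together and well above their controls. At the early times Plk2 stood at 14.9, 14.8 and 16.0 FPKM at 0.5 h and 11.5, 14.6 and 16.5 FPKM at 2 h, overlapping untreated 0 h cells. Untreated 0 h replicate 3 was the lowest of its group. Without the 4 libraries that stand apart the 4 h change was 1.66, and untreated 24 h cells were then lower than untreated 0 h cells by -0.48 (adjusted p = 0.000181; with all libraries -0.25, adjusted p = 0.665).

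Plk3, a related kinase known for roles in the stress response, was the first to be called. The gene (ENSMUSG00000028680) lies at chr4:117128655-117133963 on the minus strand. At 2 h treated cells had 15.9, 13.7 and 13.8 FPKM, against 8.33, 7.76 and 9.12 FPKM in untreated 0 h cells, a change of 0.72 (SE 0.08, adjusted p = 2.75e-05). At 0.5 h they had 10.00, 8.37 and 8.04 FPKM, within reach of the untreated libraries, and the step from 0.5 h to 2 h was 0.66 (SE 0.08, adjusted p = 0.000119), in which 1.17% of all genes were called. The 2 h call held in each of the 27 fits without 1 library, and it ended (adjusted p = 0.611) where only the 6 libraries compared entered the fit. Plk3 then had 15.8, 17.0 and 17.0 FPKM at 4 h, 15.8, 16.5 and 17.3 at 6 h, 18.1, 17.3 and 19.8 at 8 h and 17.2, 16.4 and 17.7 at 10 h. The changes ran from 0.90 at 6 h to 1.05 at 8 h (SE 0.08 each), and none of the 3 steps between these times passed the test (adjusted p = 0.967, 0.236 and 0.649, limma). At 24 h treated cells had 11.5, 10.1 and 10.02 FPKM, against 8.89, 7.53 and 8.38 FPKM in untreated 24 h cells (0.32 with SE 0.08 and adjusted p = 0.0168). That call ended without treated 24 h replicate 1 (0.26, adjusted p = 0.0946) or untreated 24 h replicate 2 (0.26, 0.0675), and under median-of-ratios scaling (0.25, 0.114). The 24 h effect was smaller than the 10 h effect by -0.63 (SE 0.12, adjusted p = 0.00152), and Plk3 was the 1 gene of the 10 for which these effects, each with its own control, differed past the threshold (8.70% of all genes did).

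The promoter windows of Plk2, Plk3 and Btg2 are shown because these are the genes of the 10 that were higher at every time from 4 h to 24 h together with Ddit4, and because all hold, as the Sesn1 window does, the letters TGACG of a cAMP response element. The Ddit4 window holds no TGACG, and 20.79% of all windows hold it. A link between these letters and the courses of the genes was not tested. The full element TGACGTCA, which contains TGACG on both strands, is present in Plk2 at -62 and in Btg2 at -166 and in 1.792% of all windows; Plk2 has TGACG once more, on the other strand, at position 22 after the start, and Plk3 has it at -132 and -63. Capitals mark these letters. The windows are chr13:110394794-110395093 (plus strand), chr4:117133914-117134213 (minus) and chr1:134079106-134079405 (minus) of GRCm38.p6, from RefSeq.
Plk2: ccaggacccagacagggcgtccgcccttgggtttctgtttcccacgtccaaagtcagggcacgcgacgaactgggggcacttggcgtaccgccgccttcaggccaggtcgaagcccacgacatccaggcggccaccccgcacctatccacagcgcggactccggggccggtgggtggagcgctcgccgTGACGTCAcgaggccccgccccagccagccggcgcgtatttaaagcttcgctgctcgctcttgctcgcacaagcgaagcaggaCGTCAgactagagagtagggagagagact
Plk3: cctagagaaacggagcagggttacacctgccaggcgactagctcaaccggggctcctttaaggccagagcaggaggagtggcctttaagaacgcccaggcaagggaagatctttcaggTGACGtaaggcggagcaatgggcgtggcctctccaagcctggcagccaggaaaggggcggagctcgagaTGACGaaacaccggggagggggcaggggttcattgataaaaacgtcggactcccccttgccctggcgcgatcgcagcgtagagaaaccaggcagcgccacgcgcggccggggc
Btg2: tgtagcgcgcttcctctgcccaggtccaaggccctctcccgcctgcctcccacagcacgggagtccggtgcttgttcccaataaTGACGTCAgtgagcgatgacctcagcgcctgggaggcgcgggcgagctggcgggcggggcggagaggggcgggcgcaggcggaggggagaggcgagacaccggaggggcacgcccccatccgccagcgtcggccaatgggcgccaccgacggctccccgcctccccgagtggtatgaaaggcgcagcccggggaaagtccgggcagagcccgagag
Of the 10 genes 8 are in the RefSeq promoter table, with 10 windows; Zmat3 and Gls2 are not described by sequence here. None of the 10 windows held an AP-1 site (TGANTCA, 7.813% of all windows), the core TGATGNAA of the ATF4 composite element (3.971%), a serum response element (1.63%) or the letters TATAAA (13.62%). CCAAT, in 37.39% of all windows, was found for 5 of the 8 genes, and the E-box CACGTG (7.149%) for Gdf15. These matches describe letters in a short window and carry no measure of binding.

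Btg2, an antiproliferative protein that recruits the CCR4-NOT deadenylase to mRNAs, had a small SE throughout (0.05). The gene (ENSMUSG00000020423) lies at chr1:134075170-134079120 on the minus strand. Treated cells had 59.9, 59.03 and 61.3 FPKM at 4 h and 56.1, 61.6 and 56.4 FPKM at 6 h, against 28.7, 27.9 and 27.8 FPKM in untreated 0 h cells, changes of 1.07 (SE 0.05, adjusted p = 1.79e-12) and 1.02 (SE 0.05, adjusted p = 1.45e-12). They had 42.3, 41.9 and 45.1 FPKM at 8 h (0.60 with SE 0.05 and adjusted p = 1.07e-08) and 51.0, 48.3 and 50.1 FPKM at 10 h (0.80 with SE 0.05 and adjusted p = 4.06e-10). No treated library from 4 h on overlapped an untreated one. At 24 h the treated libraries had 49.9, 47.6 and 45.00 FPKM, against 27.03, 27.4 and 27.2 FPKM in untreated 24 h cells (0.78 with SE 0.05 and adjusted p = 6.64e-09), and its difference from the 10 h effect was -0.02 (95% interval -0.17 to 0.13). At 0.5 h Btg2 was at 28.3, 29.6 and 28.8 FPKM and at 2 h at 31.7, 33.2 and 31.7 FPKM, the second wholly above untreated 0 h cells but not called (0.19 with SE 0.05 and adjusted p = 0.0938). With both untreated groups together as control Btg2 was called at 2 h as well.

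Zmat3 (Wig1), a zinc finger protein that binds RNA and is known to affect mRNA decay and splicing, had its highest level at 6 h. The gene (ENSMUSG00000027663) lies at chr3:32334792-32366014 on the minus strand and has the lowest GC content of the 10 (47.6%). At 6 h treated cells had 18.1, 18.3 and 18.6 FPKM, against 11.1, 11.9 and 6.85 FPKM in untreated 0 h cells, with no overlap and a change of 0.85 (SE 0.15, adjusted p = 6.19e-05). At 4 h they had 12.46, 13.3 and 13.2 FPKM, all above the untreated libraries but not called (0.38 with SE 0.15 and adjusted p = 0.0573). That call appears without untreated 0 h replicate 1 (0.47, adjusted p = 0.0356) or replicate 2 (0.52, 0.0146), without replicate 1 at 2 h (0.38, 0.0331) or replicate 3 at 10 h (0.38, 0.049), and under the GC and length correction (0.36, 5.08e-07) or median-of-ratios scaling (0.34, 0.0308). Without untreated 0 h replicate 3 the 4 h change was 0.16 (adjusted p = 0.328). At 8 h and 10 h treated cells had 15.0, 14.2 and 11.9 and 12.7, 12.8 and 9.94 FPKM, and the lowest library each time was the one that stands apart. The 8 h call (0.45 with SE 0.15 and adjusted p = 0.0172) ended without untreated 0 h replicate 3 (0.23, adjusted p = 0.15), 8 h replicate 1 (0.39, 0.0781) or 8 h replicate 2 (0.43, 0.0569), or with only the libraries compared (0.45, 0.214), and the change was 0.23 under the GC and length correction and 0.29 under median-of-ratios scaling. At 24 h treated cells had 13.4, 13.99 and 13.6 FPKM, against 9.29, 10.6 and 8.98 FPKM in untreated 24 h cells (0.47 with SE 0.15 and adjusted p = 0.0383). The groups did not overlap, yet the call ended without any 1 of the treated 24 h replicates (adjusted p = 0.0843, 0.109 and 0.0918 without replicate 1, 2 and 3) or without untreated 24 h replicate 1 (0.116) or 3 (0.141), at changes of 0.42 to 0.48. Under the GC and length correction the 24 h change was 0.15 (adjusted p = 0.0137), and without a filter on low genes the call ended (adjusted p = 0.0777). Early values were 10.8, 11.04 and 11.5 FPKM at 0.5 h and 7.56, 11.04 and 10.5 FPKM at 2 h, with the 2 h replicate that stands apart lowest.

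Gdf15, a secreted cytokine of the TGF-beta superfamily that rises with many cellular stresses, was called higher at 4 h. The gene (ENSMUSG00000038508) lies at chr8:70629393-70632456 on the minus strand. At 4 h treated cells had 9.09, 7.65 and 8.60 FPKM, against 3.10, 4.19 and 6.10 FPKM in untreated 0 h cells, a change of 0.82 (SE 0.16, adjusted p = 0.000478) with no overlap. The 4 h mean was 1.89 times the untreated mean, and 2.32 times without untreated 0 h replicate 3. With only those 6 libraries in the fit the adjusted p was 0.0705. At 2 h they had 7.01, 4.46 and 5.30 FPKM and at 6 h 5.46, 5.39 and 4.73 FPKM, overlapping the untreated libraries, whose replicate 3 was high. The 6 h change was 0.22 (SE 0.16, adjusted p = 0.3), and without that replicate it was 0.42 (adjusted p = 0.0265). The values fell between 4 h and 6 h, by a step of -0.61 (SE 0.16, adjusted p = 0.00952). Treated cells had 3.37, 3.89 and 2.83 FPKM at 0.5 h, 4.17, 3.62 and 4.32 at 8 h and 3.18, 3.59 and 4.40 at 10 h. At 24 h they had 3.62, 4.02 and 4.32 FPKM, against 3.97, 3.46 and 4.63 FPKM in untreated 24 h cells, and these groups overlapped.

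Gls2, the mitochondrial glutaminase known from liver that makes glutamate from glutamine, moved the other way. The gene (ENSMUSG00000044005) lies at chr10:128194457-128210004 on the plus strand. At 6 h treated cells had 5.53, 5.47 and 5.81 FPKM, against 6.13, 7.18 and 7.64 FPKM in untreated 0 h cells. All treated libraries were below all untreated ones, and the change was -0.27 (SE 0.08, adjusted p = 0.00987), or -0.21 (adjusted p = 0.0511) without untreated 0 h replicate 3. With only the libraries compared the adjusted p was 0.149 at 6 h and 0.353 at 10 h. At 10 h they had 5.53, 5.42 and 6.35 FPKM (-0.24 with SE 0.08 and adjusted p = 0.0295), with overlap. That call ended without untreated 0 h replicate 2 (-0.22, adjusted p = 0.0682) or 3 (-0.18, 0.134), or 10 h replicate 1 (-0.21, 0.105) or 2 (-0.20, 0.12), and under median-of-ratios scaling the change was -0.37. At 8 h the values were 5.73, 5.84 and 6.85 FPKM (-0.16 with SE 0.08 and adjusted p = 0.121). The 8 h change was called without untreated 0 h replicate 1 (-0.24, adjusted p = 0.0254) or 8 h replicate 3 (-0.23, 0.0377), and under median-of-ratios scaling (-0.31, 0.0214), a scaling that moves the median of all genes by -0.14 at 8 h and -0.12 at 10 h. The 8 h libraries with Alb at 26.02 and 19.6 FPKM had the lower Gls2 values, 5.73 and 5.84 FPKM, and the third, with Alb at 0.0633 FPKM and one of the libraries that stand apart by GC, had 6.85 FPKM. At 6 h the library with Alb at 17.5 FPKM had the highest Gls2 value, 5.81 FPKM. Alb was also high in treated 0.5 h and untreated 24 h cells, with Gls2 at 7.23 to 7.77 and 6.58 to 7.86 FPKM. Whether hepatocyte transcripts had a part in the Gls2 values was not tested. At 0.5 h, 2 h and 4 h treated cells had 7.23, 7.77 and 7.42, then 8.80, 7.52 and 7.88, then 7.03, 6.84 and 7.27 FPKM, all overlapping untreated 0 h cells. At 24 h they had 6.82, 7.005 and 7.18 FPKM, against 7.29, 6.58 and 7.86 FPKM in untreated 24 h cells (-0.04 with SE 0.08 and adjusted p = 0.732).

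**Figure D2:**
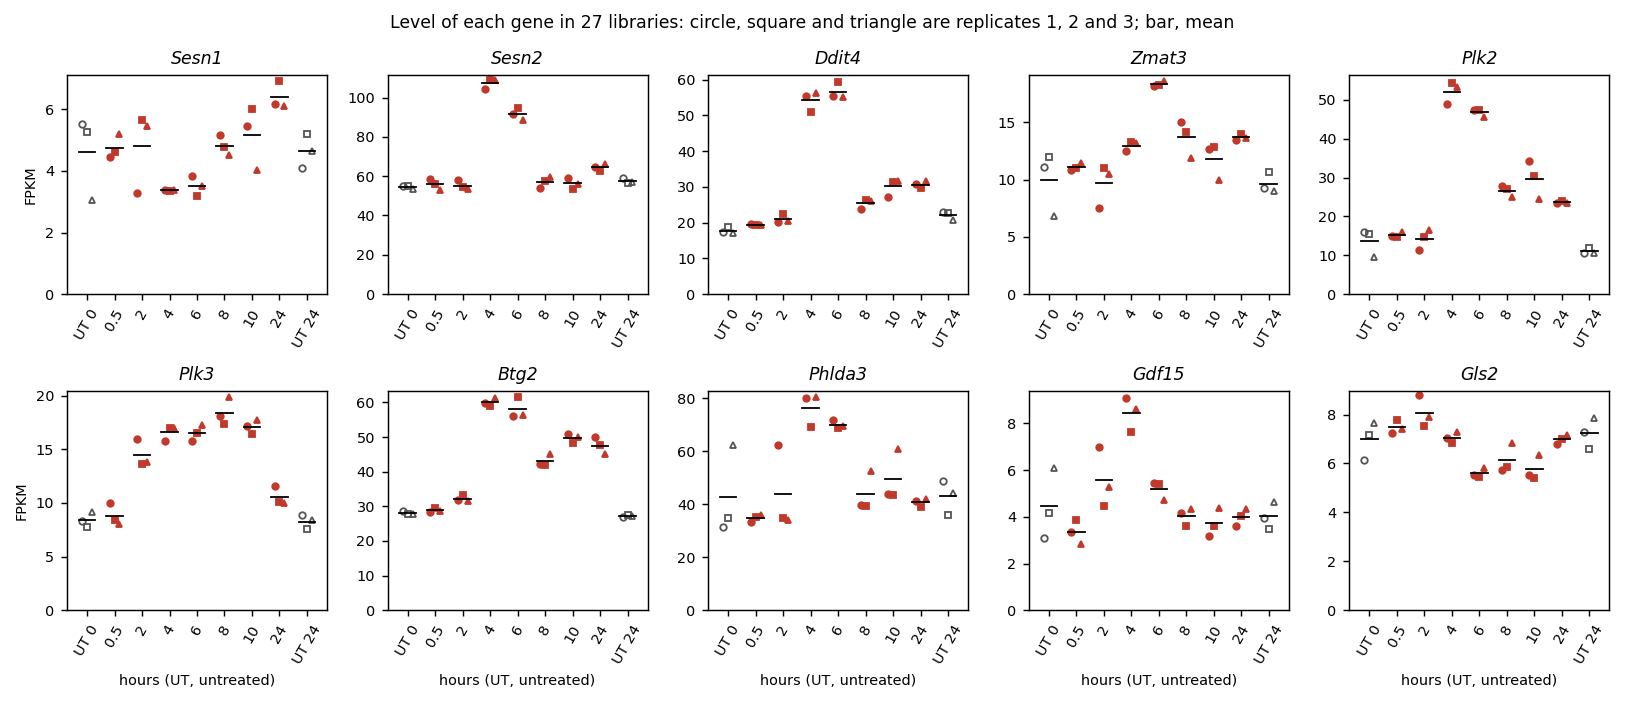
Level of each of the 10 genes (FPKM, vertical axes from 0) in each of 27 libraries, by hours; red, peroxide-treated; open grey, untreated (UT) at 0 h on the left and at 24 h on the right; bars are means of 3. Sesn2 is highest at 4 h and 6 h, Plk3 lies above the untreated libraries from 2 h to 10 h, and Phlda3, Gdf15, Zmat3, Plk2 and Sesn1 each have a stray value in untreated 0 h replicate 3.

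The courses of the genes can be set side by side by their highest group means. Sesn2 (107 FPKM), Plk2 (52.2), Btg2 (60.1), Phlda3 (76.4) and Gdf15 (8.45) were highest at 4 h, Ddit4 (56.6) and Zmat3 (18.3) at 6 h, Plk3 (18.4) at 8 h and Sesn1 (6.41) at 24 h. Gls2 was highest at 2 h (8.07 FPKM) and lowest at 6 h (5.61). The 4 h and 6 h levels of Ddit4, Plk2, Btg2 and Phlda3 did not differ past the threshold. From 2 h to 4 h 6 of 10 genes rose (20.1% of all genes were called in either direction, 10.2% higher): Plk2 (1.82), Ddit4 (1.32), Sesn2 (0.95), Btg2 (0.88), Phlda3 (0.84) and Gdf15 (0.54). The call of Gdf15 ended without 2 h replicate 2 (0.41, adjusted p = 0.122) or 3 (0.51, 0.0603) or 4 h replicate 1 (0.49, 0.0796) or 3 (0.52, 0.0632). From 6 h to 8 h 6 of 10 fell, against 6.02% of all genes called lower in that step: Ddit4 (-1.13), Plk2 (-0.79), Sesn2 (-0.67), Phlda3 (-0.67), Btg2 (-0.42) and Zmat3 (-0.40). In that step the Zmat3 call ended in 20 of the 27 fits without 1 library. The Phlda3 call ended without 6 h replicate 1 (-0.66, adjusted p = 0.0715), 2 (-0.68, 0.0605) or 3 (-0.68, 0.0611), or 8 h replicate 1 (-0.61, 0.0932) or 2 (-0.60, 0.0962). In the same step 18.1% of all genes rose.

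Sesn2 had the highest mean of the 10 in every group, and the order below it varied. In untreated 0 h cells Sesn2 averaged 54.3 FPKM, Phlda3 42.9, Btg2 28.1, Ddit4 17.8, Plk2 13.7, Zmat3 9.96, Plk3 8.40, Gls2 6.98, Sesn1 4.61 and Gdf15 4.46. Neighbours in this order whose libraries overlapped were Sesn2 and Phlda3, Plk2 and Zmat3, Zmat3 and Plk3, and Sesn1 and Gdf15. In treated 4 h cells Plk2, at 52.2 FPKM, overlapped Ddit4, at 54.2 FPKM, and no other neighbouring pair overlapped. The summed level of the 10 was 399 FPKM in treated 4 h cells and 372 at 6 h, against 191 in untreated 0 h cells.

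**Figure D3:**
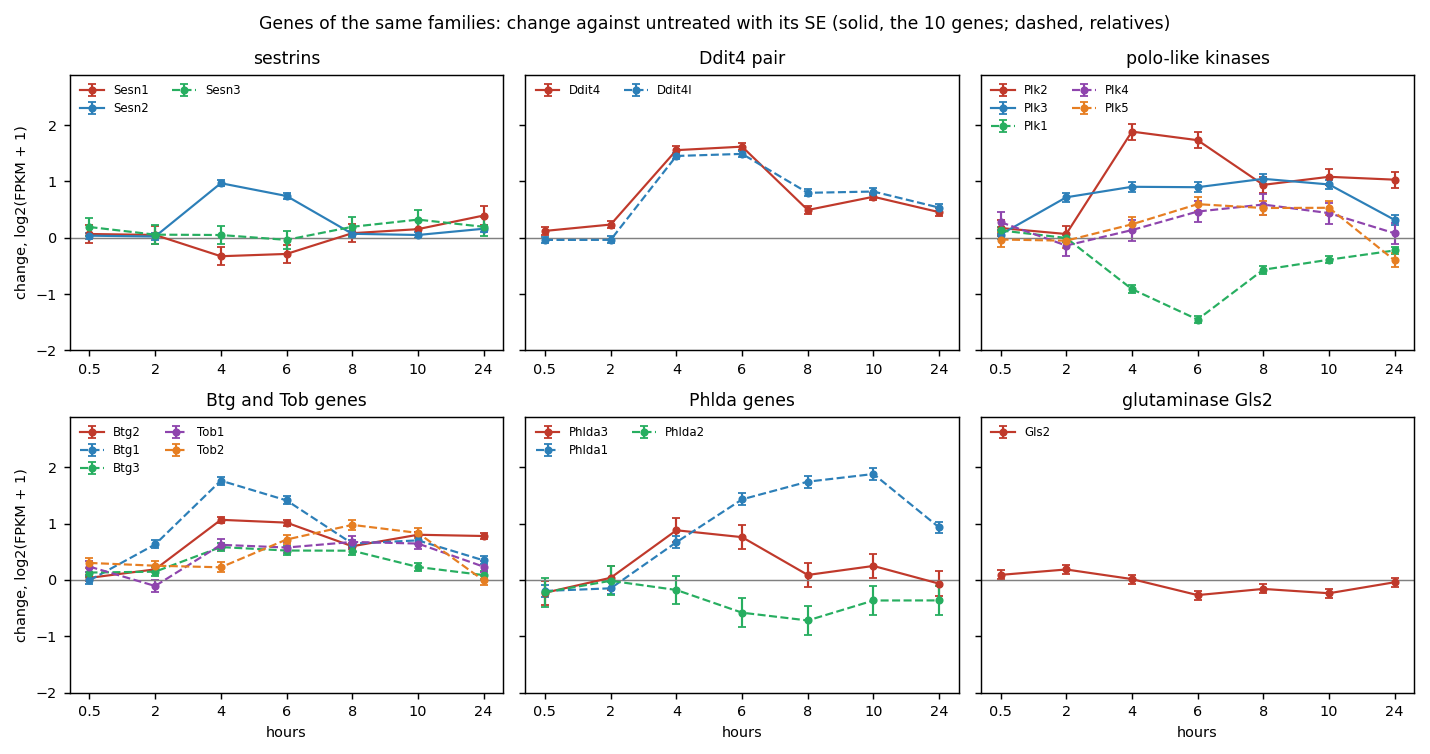
Change against untreated cells (log2(FPKM + 1), with its SE from limma) over the 7 treated times for genes of the same families; solid lines, the 10 genes; dashed lines, relatives. Ddit4 and Ddit4l change alike at 4 h and 6 h, and Plk1 falls to -1.45 at 6 h while Plk2 and Plk3 are high. Sesn3 stays near 0.

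Relatives of the 10 genes did not all follow them. Of 19 listed relatives 18 are in the tables and 16 passed the filter; 5 were higher and 3 lower at 4 h, 8 and 4 at 6 h, 10 and 4 at 8 h, 9 and 4 at 10 h, and 3 and 4 at 24 h. The shares of all genes called higher and lower were 14.2% and 12.1% at 4 h, 22.3% and 20.0% at 6 h, 29.2% and 11.6% at 8 h, 22.2% and 9.43% at 10 h, and 8.63% and 4.28% at 24 h. Ddit4l, the paralog of Ddit4 with the same known action on mTORC1, rose by 1.45 at 4 h and 1.49 at 6 h, close to Ddit4, and had 26.5 ± 0.56 FPKM at 6 h, against 8.79 ± 0.27 FPKM in untreated 0 h cells (SD, n = 3 each). Between the untreated groups, though, Ddit4l was called lower at 24 h and Ddit4 higher. The 24 h effect of Ddit4l was called smaller than its 10 h effect, while that of Ddit4 was not. Btg1, the paralog of Btg2, was the relative called at 2 h (0.63), and it rose by 1.76 at 4 h. Tob1, Tob2 and Btg3 of the same antiproliferative family were higher at 6 h by 0.58, 0.72 and 0.52. Plk1, the mitotic polo-like kinase, fell at 4 h (-0.91) and 6 h (-1.45), to 25.96 ± 1.36 FPKM at 6 h, against 72.7 ± 0.61 FPKM in untreated 0 h cells (SD, n = 3 each). Plk4 and Plk5 were higher at 6 h by 0.47 and 0.60. Phlda1 rose by 0.67 at 4 h, 1.43 at 6 h and 1.88 at 10 h. Sesn3 was called at no time (changes of -0.04 to 0.32). Gdf3, a pluripotent cell relative of Gdf15, fell by -1.56 at 6 h. Differences between paralogs were not tested as such.

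Many other p53 targets were called at the same times, in a list chosen with earlier results of these data known. Of all genes 14.2% were called higher and 12.1% lower at 4 h, and 22.3% and 20.0% at 6 h. These shares were 29.2% and 11.6% at 8 h, 22.2% and 9.43% at 10 h, and 8.63% and 4.28% at 24 h. At 2 h 0.499% were called higher and 1.07% in either direction. Of 25 other p53 targets, all tested, 1 was higher and 1 lower at 2 h, 19 and 1 at 4 h, and 20 and 1 at 6 h. At 8 h 18 were higher and 0 lower, at 10 h 16 and 0, and at 24 h 15 and 0. Their median change was 0.77 at 4 h and 0.77 at 6 h, beside 0.89 and 0.81 for the 10 genes, and 0.40 at 24 h beside 0.36; over all genes it was 0.01, 0.00 and 0.07. Mdm2 rose by 1.92 at 4 h and 2.02 at 6 h and was 0.79 higher at 24 h. Cdkn1a, the cyclin-dependent kinase inhibitor p21, rose by 0.98 at 4 h and 0.94 at 6 h, and its 24 h effect was smaller than its 10 h effect by -0.49, as was that of Plk3. The largest at 6 h were Polk (2.30), Fas (2.03), Mdm2 and Apaf1 (2.02). The lower gene was Tigar, a metabolic target, with -0.26 at 4 h and -0.42 at 6 h. The change of Trp53 mRNA itself was -0.02 at 4 h and -0.26 at 6 h, not called, and it was called lower at 8 h (-0.41) and 10 h (-0.43). Of 8 tested genes for p53 and its modifiers 2 were higher at 4 h (14.2% of all genes). At 6 h 3 were higher and 1 lower (22.3% and 20.0% of all genes). The largest at 6 h were the p53 relative Trp73 (2.09, SE 0.08) and the p53 inhibitor Mdm4 (2.05, SE 0.50). Mdm4 was uneven in untreated 0 h cells, with a mean of 9.13 FPKM and an SD of 7.38.

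**Figure D4:**
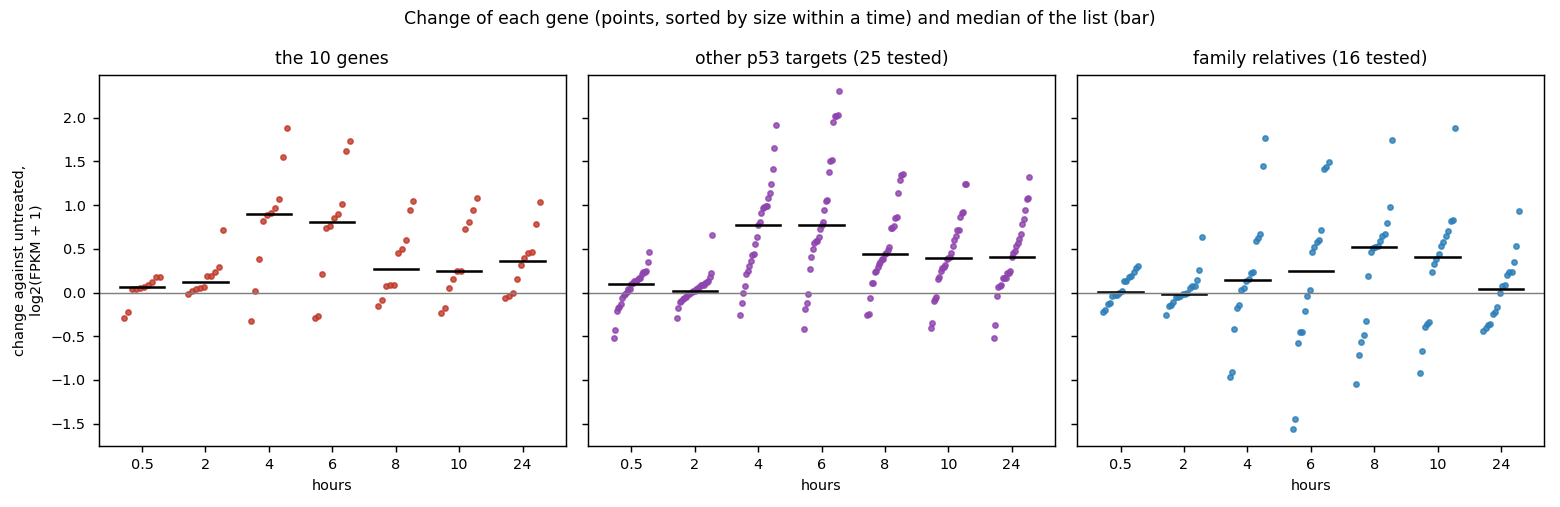
Change against untreated cells (log2(FPKM + 1)) of the 10 genes, 25 other p53 targets and 16 family relatives at the 7 treated times; each point is 1 gene, bars are medians. The medians of the first 2 lists are 0.77 to 0.89 at 4 h and 6 h, while the relatives scatter on both sides of 0.

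Several of the 10 genes are known targets of other stress pathways. The other genes of those pathways are counted here beside the share of all genes called higher and lower. These shares were 14.2% and 12.1% at 4 h, 22.3% and 20.0% at 6 h, and 29.2% and 11.6% at 8 h. At 10 h they were 22.2% and 9.43%, and at 24 h 8.63% and 4.28%. At 2 h 0.499% of all genes were called higher and 1.07% in either direction. Nothing particular to the pathways is read from the counts. Of 30 genes that set or sense mTORC1 and Akt activity, 4 were higher and 1 lower at 4 h, 9 and 5 at 6 h, 10 and 1 at 8 h, 6 and 1 at 10 h, and 2 and 0 at 24 h. Of 17 tested ATF4 targets 4 were higher and 1 lower at 4 h, 4 and 4 at 6 h, 4 and 6 at 8 h, and 3 and 7 at 10 h. Atf3 (1.13), Ddit3 (0.74) and Cebpb (0.71) were higher at 6 h, and Chac1 (-1.67) lower. Of 19 tested NRF2 targets 2 were higher and 1 lower at 4 h, 3 and 2 at 6 h, 5 and 1 at 8 h, and 8 and 2 at 10 h, with Hmox1 at 1.32 and Gclc at 0.62 at 6 h. The immediate early genes, of which 21 were tested, had 9 members higher and 2 lower at 2 h, when Plk3 was first higher, with Egr1 at 3.20 and Fos at 2.71, and 11 higher and 3 lower at 6 h. Of 18 pluripotency markers 10 were lower at 4 h and 11 at 6 h, and none higher, with Nanog at -1.92 at 6 h.

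Markers of other cell types moved with some comparisons as well. Of 29 listed hepatocyte markers 19 were tested, and Apoa1, for one, reached 1 FPKM only in libraries where Alb was high. The tested set was thus partly picked by those libraries, and its counts are only a description. Of the 19, 16 were higher at 8 h (29.2% of all genes) and 16 lower at 24 h (4.28%). Of the 10 genes 5 were called higher at 8 h (29.2% of all genes) and 5 were called higher at 24 h (8.63%). At 8 h Alb was high in replicates 1 and 2 only. Between the untreated groups 7 of the 19 were higher at 24 h (0.426% of all genes). Without Ass1, which ES cells express, the summed level of the list was 29.0 to 103 FPKM in treated 8 h cells and 22.5 to 27.2 in treated 24 h cells, against 22.8 to 51.6 in untreated 0 h cells and 83.5 to 100.0 in untreated 24 h cells. Of 8 listed astrocyte markers 4 were tested, and these 4 were higher at 6 h (22.3% of all genes) and 8 h (29.2%). In untreated 0 h cells Lcn2 and Gfap were at most at 0.0206 and 0.246 FPKM. They passed the filter only through other libraries, so these counts too are only a description. Lcn2, at 1.39 (SE 0.53) at 6 h, had 0, 3.56 and 3.01 FPKM in replicates 1, 2 and 3. Gfap, at 1.16 (SE 0.41) at 6 h, also differed by library there, with 0.306, 2.77 and 2.54 FPKM in replicates 1, 2 and 3. Aldh1l1 and Gja1 were already at 2.49 and 8.14 FPKM in untreated 0 h cells. Of 2 tested fibroblast markers 1, Thy1, was lower at 6 h (-0.37), as were 20.0% of all genes. The part of these transcripts in the changes of the 10 genes was not tested.

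**Figure D5:**
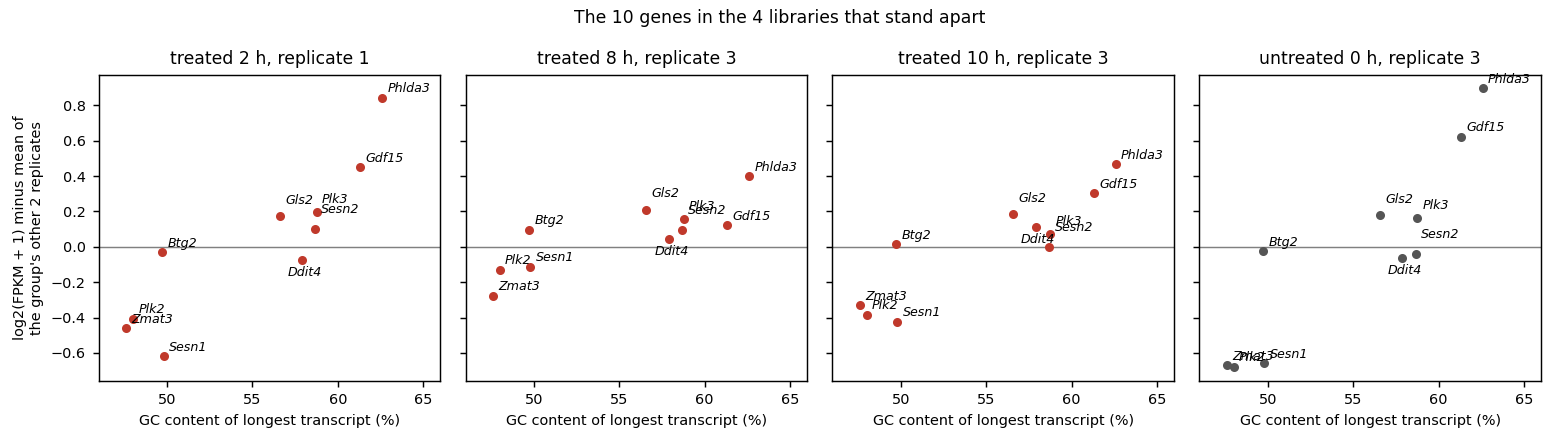
Deviation of each of the 10 genes (log2(FPKM + 1) minus the mean of the other 2 replicates of the group) against the GC content of its longest transcript, in the 4 libraries that stand apart. In untreated 0 h replicate 3 the values run from -0.68 for Plk2 to 0.90 for Phlda3, with Btg2 (-0.03) off the trend.

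Untreated 0 h replicate 3 enters every comparison up to 10 h. Its level was 1.88 times the mean of the other 2 replicates for Phlda3 (62.58% GC) and 1.68 times for Gdf15 (61.29%). It was 0.565 times for Sesn1 (49.8%), 0.596 for Zmat3 (47.6%) and 0.602 for Plk2 (48.0%). Btg2, with 49.73% GC, was at 0.982 times and Sesn2, Ddit4, Plk3 and Gls2 (56.59% to 58.76%) at 0.956 to 1.15 times. Without the 4 libraries 8 of 10 genes were higher and 1 lower (Sesn1) at 4 h. At 6 h 8 were higher and 2 lower (Sesn1 and Gls2). Calls over all genes grew in that fit as well. Of 13614 genes 6883 were called at 4 h and 7638 at 6 h, against 3577 and 5761 in the main fit. The GC and length correction gave the same counts for the 10 genes.

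Pearson's r of mean log2(FPKM + 1) across the 9 group means was 0.97 between Plk2 and Btg2, 0.93 between Ddit4 and Plk2, 0.93 between Sesn2 and Ddit4 and 0.92 between Sesn2 and Phlda3. Sesn1 ran against Phlda3 (-0.77) and Sesn2 (-0.71), and Gls2 against Zmat3 (-0.71). The genes with the likest course over these 9 means were Ric1 (0.99) and Tmtc3 (0.99) for Zmat3, Nkx2-9 (0.99) for Plk2, Efnb2 (0.97) for Ddit4, Shisa2 (0.98) for Sesn2, Cpped1 (0.98) for Btg2, 2510017J16Rik (0.98) for Phlda3, Ccdc28a (0.97) for Plk3, Oas1d (0.98) for Gdf15, Eepd1 (0.97) for Sesn1 and Accsl (0.97) for Gls2. The points share libraries and treatment, and each likest gene was picked among all genes tested, so these values are a description with n = 9.

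Of the 10 loci 4 overlap another annotated gene. Whether strand was used in counting is not given in the sources used here, and it bears only on overlaps of opposite strands. Sesn1 shares 2584 bases with 9930024M15Rik and Sesn2 6089 bases with Gm12981, both on the same strand, and these reached at most 0.0220 and 0.443 FPKM. Plk3 shares 84 bases with Tctex1d4 (at most 0.506 FPKM) and Gls2 97 bases with Spryd4 (19.6 to 29.4 FPKM), both on the opposite strand. In the authors' deposited tables, whose criteria for a mark the labels do not state, 3 of the 10 genes were marked as up at 4 h and 3 at 6 h (Ddit4, Plk2 and Btg2 each time), 1 at 8 h (Plk3), 2 at 10 h (Plk2 and Plk3) and 1 at 24 h (Plk2).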

How the data were processed

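Messenger RNA levels of 27 libraries were read from 7 tables of 38352 genes. Per the file headers the deposited values are FPKM per gene and library, and per the submitters' processing notes reads were handled with cutadapt, FastQC, HISAT2, StringTie and edgeR on mm10, with no versions given. The authors' deposited tables also hold log2 fold changes and q-values of their own comparisons, which are used here only where named as theirs. The 15 columns repeated between tables had 0 differences, so each library was used once; 74 symbols are shared by several genes, none of them one of the 10.

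From the FPKM, log2(FPKM + 1) was fitted with limma 3.58.1 (R 4.3.3, empirical Bayes with a mean-variance trend; the script was tested on simulated data) to all 27 libraries and to the 13614 genes that reached 1 FPKM in 3 or more of them, with the 9 groups as coefficients. P-values were adjusted by Benjamini-Hochberg over all genes within each comparison, and 0.05 was the threshold. The change of low genes is understated on this scale. The median SE was 0.130. The time courses share replicate numbers, and the check in the closing section does not decide whether these pair libraries. No block was used in the main fit, and a replicate block is among the alternatives. Tables and figures were made with Python 3.11.15, pandas 2.3.3, numpy 2.4.6, scipy 1.17.1 and matplotlib 3.10.9. Gene positions, GC content and length came from GENCODE M21 on GRCm38 (13602 of 13614 genes had both), promoters from RefSeq.

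The 10 genes and all gene lists were chosen with earlier results of these data known. Beside the 10, the text names from each list up to 4 genes with the largest change at 6 h among those called at 6 h, paralogs, Trp53, Mdm2 and Cdkn1a, and the likest courses; Tigar, Egr1 and Alb, outside that rule, were chosen after their values were seen. Results for some list members are not reported here. Alternatives were median-of-ratios scaling, a pseudocount of 0.1, a filter at 5 FPKM or none, a replicate block, only the libraries compared, a GC and length correction, both untreated groups as control, and leaving out each library or the 4 that stand apart.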

Additional observations from a re-analysis of the deposited data

Results flagged for a closer look

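Plk3 had a 24 h effect, treated against untreated 24 h cells, that was smaller than its 10 h effect, treated 10 h against untreated 0 h cells. The difference was -0.63 on the log2(FPKM + 1) scale (SE 0.12, adjusted p = 0.00152, limma), and 8.70% of all genes tested differed in this comparison.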

How the results depend on the processing

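Leaving out 1 library at a time gave 0 to 0 genes called of the 10 at 0.5 h, 1 to 1 at 2 h, 7 to 8 at 4 h, 8 to 9 at 6 h, 4 to 6 at 8 h, 4 to 5 at 10 h, 3 to 7 at 24 h (3 without treated 24 h replicate 1), 0 to 1 between the untreated groups, 18 to 27 over the steps between treated times and 1 to 2 for the 24 h effect minus the 10 h effect. With only the libraries compared, 0 were called at 2 h, 3 at 10 h and 0 between the untreated groups. Those fits called 3, 484 and 12 of all genes. With both untreated groups as control 2 were called at 2 h. Between the untreated groups the count was 0 under median-of-ratios scaling, 0 under the replicate block with that scaling and 0 under the GC and length correction. Without the 4 libraries that stand apart 4 of the 10 were called there. That fit called 4100 of 13614 genes between the untreated groups, against 96 in the main fit. For the 24 h effect minus the 10 h effect the count was 4 without those libraries and 3 under the correction. Of all genes 3665 were called for it without those libraries, against 1184 in the main fit. The 8 h change of Sesn2 turned to -0.14 under the correction (adjusted p = 0.00578). The cause was not tested.

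The replicate block gave 8 calls at 4 h, with Zmat3 added, and 23 over the steps. Of 108 same-numbered pairs of libraries 35 had a correlation over 0.1 (range -0.799 to 0.797). Their median was 0.037, against -0.016 for pairs with other numbers. By mean correlation 15 of 27 libraries were closest to their own number. These values do not decide whether the numbers pair libraries, so fits without and with the block are both given. Counts over all genes moved more: 11 genes at 0.5 h ranged from 6 to 48, 145 at 2 h from 3 to 342, 3577 at 4 h from 1061 to 6883, 5761 at 6 h from 2713 to 7638, 5545 at 8 h from 1537 to 6579, 4309 at 10 h from 484 to 5414, 1757 at 24 h from 881 to 6987, 96 between the untreated groups from 12 to 4100 and 1184 for the 24 h effect minus the 10 h effect from 417 to 3665. Reads per gene are unknown, so no counting error could be given.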
